A study of Arabidopsis thaliana with 12 samples.

Results

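The loss of JAZ repressors was examined in Arabidopsis rosettes that also lack CDK8, by setting jazDcdk8-1 plants against cdk8-1 plants. The comparison was made by genotype label across all genes, and it uses 6 of the 12 libraries, 3 of jazDcdk8-1 and 3 of cdk8-1. The remaining 6 libraries, 3 of jazD and 3 of Col-0, give the same loss in plants that have CDK8. jazDcdk8-1 carries the jazD set of JAZ mutations together with the cdk8-1 allele, cdk8-1 carries that allele alone, jazD carries the JAZ mutations alone, and Col-0 is the wild type. The mutations are present in the whole plant, and each genotype is given as a single line. As background, jazD combines mutations in JAZ1 to JAZ7, JAZ9, JAZ10 and JAZ13 and leaves JAZ8, JAZ11 and JAZ12 intact. Plants of all genotypes shared a tray, under 16 h of light and 8 h of dark at 20 °C, for 18 days on peat and a further 7 days on soil. Each library is a pool of about 20 rosettes without roots, and the 3 pools of a genotype were independent, so the tests measure the spread between pools.

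JAZ proteins hold down the response to the hormone jasmonate (JA). They bind transcription factors such as MYC2 and recruit corepressors, and bioactive JA makes the receptor COI1 send them for degradation. MYC factors then drive wound and insect defence genes and, together with ethylene signalling, ERF factors such as ORA59 drive antifungal genes. CDK8 is the kinase of a detachable module of Mediator, the complex that links transcription factors to RNA polymerase II, and the module can help or hinder transcription depending on the gene.

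The total of expected counts ran from 17894260 to 21030374 in the 6 libraries. Values are given in CPM, counts scaled to the effective size of each library. Correlation of log2 CPM between libraries was 0.9914 to 0.9925 within jazDcdk8-1, 0.9908 to 0.9912 within cdk8-1 and 0.976 to 0.9811 between them. Replicate 3 of cdk8-1 stands apart in defence genes. Over 9 JA defence genes above 2 CPM in cdk8-1 (the ERF branch outputs and MYC branch wound genes described below), its median difference from the other cdk8-1 libraries was 0.96 on the log2 scale, against -0.57 for replicate 1 and -0.49 for replicate 2. Many results that rest on this library are given with and without it. The 5 leaf markers summed to 51800 to 56200 CPM in jazDcdk8-1 and 56400 to 62700 CPM in cdk8-1. Of 9 root markers, 6 were at 0 counts in jazDcdk8-1 and 3 in cdk8-1, and their sums ran from 0.111 to 0.43 CPM and from 0.31 to 0.48 CPM. The 8 flower markers summed to 0.973 to 1.78 CPM in jazDcdk8-1 and 0.865 to 1.6 CPM in cdk8-1, with 3 and 1 of them at 0 counts. The 4 seed markers reached at most 0.185 CPM in jazDcdk8-1 and 0.207 CPM in cdk8-1.

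The mutated genes were examined first. CDK8 was at 2.73, 3.3 and 3.29 CPM in jazDcdk8-1 and 2.29, 2.74 and 2.64 CPM in cdk8-1, against 21.1, 20.1 and 20.1 CPM in jazD and 17.38, 18.6 and 20.3 CPM in Col-0. The low libraries are those labelled cdk8-1, and the groups do not overlap. MED12, which in yeast and animals activates the kinase together with cyclin C, was at 61.5, 63.5 and 66.5 CPM in jazDcdk8-1 and 65, 57.5 and 67.5 CPM in cdk8-1. MED13, listed as GCT, is the subunit that joins the module to core Mediator there, and was at 42.6 to 47.2 CPM in jazDcdk8-1 and 39.2 to 46.7 CPM in cdk8-1. Of the 3 genes of the kinase module matched by name, 0 passed the test between jazDcdk8-1 and cdk8-1 by edgeR's quasi-likelihood test, and 0 did so by DESeq2. The unadjusted p in edgeR was 0.0642 for CDK8, 0.846 for MED12 and 0.296 for MED13, so 0 were below 0.05. The cyclin C genes of the module were not matched to a named identifier and are not analysed here.

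JAZ2 was at 3.5, 3.59 and 3.52 CPM in jazDcdk8-1 against 29.6, 28.9 and 28.2 CPM in cdk8-1, a log2 fold change of -3.03 ± 0.10 (standard error, adjusted p = 2.04e-15, edgeR quasi-likelihood test). JAZ6 was at 1, 1.24 and 1.44 CPM in jazDcdk8-1 against 23.9, 27.7 and 26.3 CPM in cdk8-1, a log2 fold change of -4.38 ± 0.13 (adjusted p = 3.09e-16). Both genes separate the genotypes with no overlap. In pools of whole rosettes, fewer cells of a type and less RNA per cell cannot be told apart. Reads outside the disrupted part of a gene can still be counted, so a JAZ gene that is not low does not question its label. JAZ1 fell to 2.61, 2.92 and 1.67 CPM in jazDcdk8-1, against 5.64, 6.2 and 7.01 CPM in cdk8-1. JAZ5 fell to 0.89, 0.43 and 0.185 CPM in jazDcdk8-1, against 1.95, 2.27 and 1.82 CPM in cdk8-1, a log2 fold change of -2.05 that became -2.70 without jazDcdk8-1 replicate 1. JAZ3, JAZ4 and JAZ9 were also called lower, by -0.61, -1.70 and -0.33 on the log2 scale, and the call of JAZ4 was lost when any of 4 libraries was left out (adjusted p from 0.0632 to 0.153). In jazD against Col-0, JAZ3 and JAZ4 were called lower too (-0.20 and -1.47). There JAZ5 was not called (-0.29, adjusted p = 0.332) and JAZ9 was called higher (0.17, adjusted p = 0.0109, edgeR quasi-likelihood test). The falls of JAZ5 and JAZ9 were thus not shared by both jazD genotypes. JAZ7 was not tested, with 1 count in jazDcdk8-1 and 11 in cdk8-1, a ratio of 11.0 for cdk8-1 over jazDcdk8-1 (95% interval of counting error, 1.61 to 476).

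The intact JAZ genes differed from this. JAZ12 was at 68.2, 68.5 and 70.9 CPM in jazDcdk8-1 against 51.8, 55.3 and 53.6 CPM in cdk8-1, a log2 fold change of 0.37 ± 0.05 (adjusted p = 3.21e-05). JAZ11 was at 10.3, 10.8 and 10.5 CPM in jazDcdk8-1 and 8.83, 11.7 and 10.9 CPM in cdk8-1, with overlap and no call. JAZ8, a form without the usual degradation motif, was at 0.667, 0.335 and 0.509 CPM in jazDcdk8-1 against 0.15, 0.155 and 0.192 CPM in cdk8-1. Its log2 fold change of 1.55 ± 0.54 (adjusted p = 0.0402) was not called when any of 5 of the 6 libraries was left out, nor by DESeq2 (adjusted p = 0.0531). Where CDK8 was intact, JAZ8 was at 2.67, 3.59 and 3.02 CPM in jazD against 0.259, 0 and 0.2 CPM in Col-0. The JAZ effect on JAZ8 was thus 2.75 log2 units more negative without CDK8 (95% interval -4.44 to -1.06, adjusted p = 0.0235 for the difference). Without cdk8-1 replicate 3 the difference was -2.63, close in size but not called (adjusted p = 0.0803). JAZ10, which is among the mutated genes, was at 3.39, 2.97 and 2.78 CPM in jazDcdk8-1 against 2, 1.86 and 2.16 CPM in cdk8-1, and its call was lost whichever of the 6 libraries was left out. Its difference of -1.58 (-2.16 to -1.01) from the effect in plants with CDK8 was called with all libraries and without cdk8-1 replicate 3. Of 11 tested JAZ genes, 3 were called higher and 7 lower, and 1 and 6 without cdk8-1 replicate 3. JAZ13, also mutated, was not matched to a named identifier and is not analysed here. Of all 19059 genes tested, 12.7% were called higher and 11.2% lower.

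**Figure D1:**
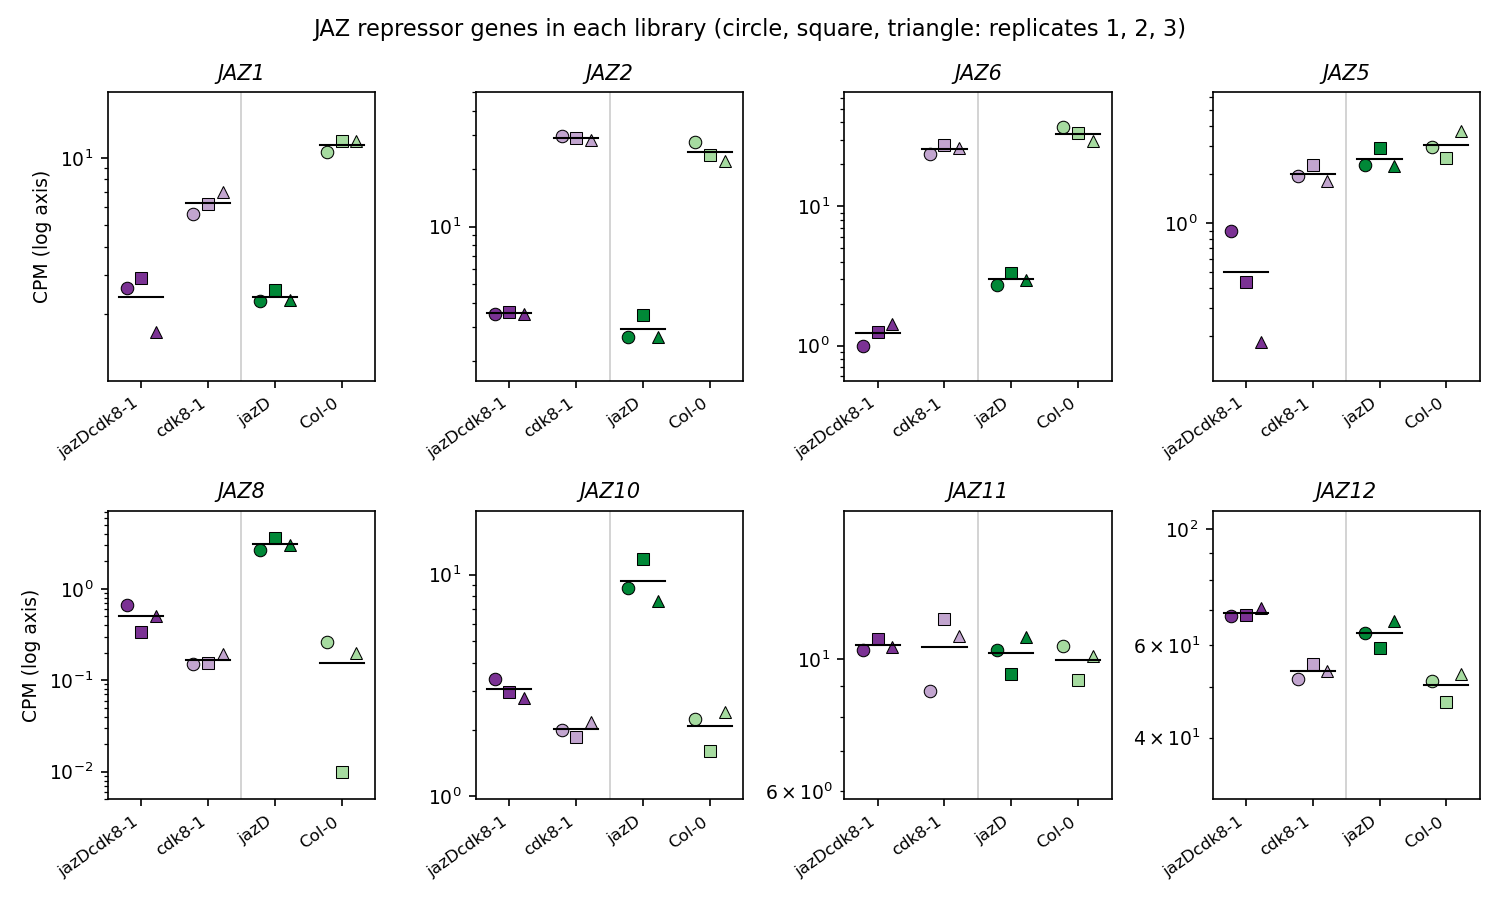
CPM of 8 JAZ genes in each library, on a log axis, with the genotypes jazDcdk8-1, cdk8-1, jazD and Col-0 from left to right and a horizontal bar at each mean; libraries with 0 counts are drawn at 0.01. JAZ2 and JAZ6 are low in both jazD genotypes, JAZ11 overlaps in all, and JAZ8 and JAZ10 are highest in jazD.

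Across all genes, 2430 were higher and 2140 lower in jazDcdk8-1 than in cdk8-1 at an adjusted p below 0.05 (12.7% and 11.2% of those tested). With a change of at least 2-fold, 381 were higher (2.00%) and 164 lower (0.860%). The libraries of the genotypes did not overlap for 7236 genes (38.0%). The share of higher genes among those called was 53.2%, and 41.7% when libraries were scaled by total counts alone (1924 higher, 2688 lower), a scaling that put the median gene at -0.03 on the log2 scale against 0.01. With CDK8 present, 4162 genes were called higher (21.8%) and 3991 lower (20.9%) in jazD than in Col-0. At 2-fold or more these counts were 817 (4.29%) and 435 (2.28%). The JAZ effect itself was more positive without CDK8 for 1555 genes (8.16%) and more negative for 1599 (8.39%). Across all genes tested the 2 effects, which share no library, had a Pearson correlation of 0.652 (over genes, which are not independent replicates).

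Of the 817 genes at least 2-fold higher in jazD than in Col-0, 524 (64.1%) were called higher in jazDcdk8-1 than in cdk8-1 and 315 (38.6%) at least 2-fold so. A further 287 were not called and 6 were called lower. Their median log2 fold change was 0.88 without CDK8 and 1.66 with it. The difference was called as more negative without CDK8 for 433 of them (53.0%) and more positive for 6. The 817 genes were chosen by their change in jazD, which also enters the difference. That choice by itself favours negative differences and a larger median with CDK8. Read the other way, 349 of the 381 genes at least 2-fold higher in jazDcdk8-1 (91.6%) were called higher in jazD, 315 of them (82.7%) at least 2-fold. A further 32 were not called there. The effect was weaker without CDK8 for 136 of the 381 and stronger for 22, by called differences. Of the 315 genes past 2-fold in both comparisons, 136 had a more negative effect without CDK8, 6 a more positive one, and 173 had no called difference. For 33 of the 315, the 95% interval of the difference lay within 1.5-fold, so a missing call does not show equal effects for most of them.

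The genes that fell were compared in the same way. Of the 435 genes that were lower by 2-fold or more in jazD than in Col-0, 208 (47.8%) were called lower in jazDcdk8-1 than in cdk8-1 and 80 (18.4%) at least 2-fold so. Their median log2 fold change was -0.54 without CDK8 and -1.40 with it. Choosing genes by their fall in jazD likewise favours a larger fall with CDK8. Of the 164 genes that fell by 2-fold or more in jazDcdk8-1, 100 (61.0%) were called lower in jazD and 4 were called higher there. By called differences, the effect was stronger without CDK8 for 30 of the 164 and weaker for 14. Choosing genes by their fall in jazDcdk8-1 favours a stronger effect without CDK8. The shares of higher and lower genes carried over were not tested against each other. A stretch of chromosome 5 from 17 to 24 Mb (TAIR10.1) holds 6.71% of all genes tested and 26 of these 164 (15.9%). It includes 8 of the 30 genes down by 4-fold or more (26.7%). Of the 435 genes, 92 lie in it, and 64 of these (69.6%) had a called more positive difference. Outside it the count was 138 of 343 (40.2%). Median log2 fold changes without and with CDK8 were -0.3 and -1.81 inside it, and -0.569 and -1.335 outside it. With the stretch removed, 2271 genes were called higher and 1971 lower. The part of the stretch in the result was not tested further. Whether the lines carry the same sequence in this stretch cannot be told from counts. CDK8 itself lies on chromosome 5, from base 25463362 to 25465922, near this stretch but outside it. For genes in the stretch, loss of CDK8 and sequence inherited with the cdk8-1 allele cannot be told apart. Loss of JAZ genes and other sequence carried by the jazD lines cannot be told apart there either, in each of the comparisons. The stretch also holds PDF1.2A, PDF1.2C, TSB1, UGT79B1 and DFR, whose values are given below. Other genes reported below lie in it too, among them AOS, MYC3, ERF2, ERF5, CYP81F2 and RD29A. It holds 42 of the 84 genes down by 4-fold or more in jazD against Col-0 (50.0%), and 29 of the 381 genes at least 2-fold higher in jazDcdk8-1 (7.61%).

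**Figure D2:**
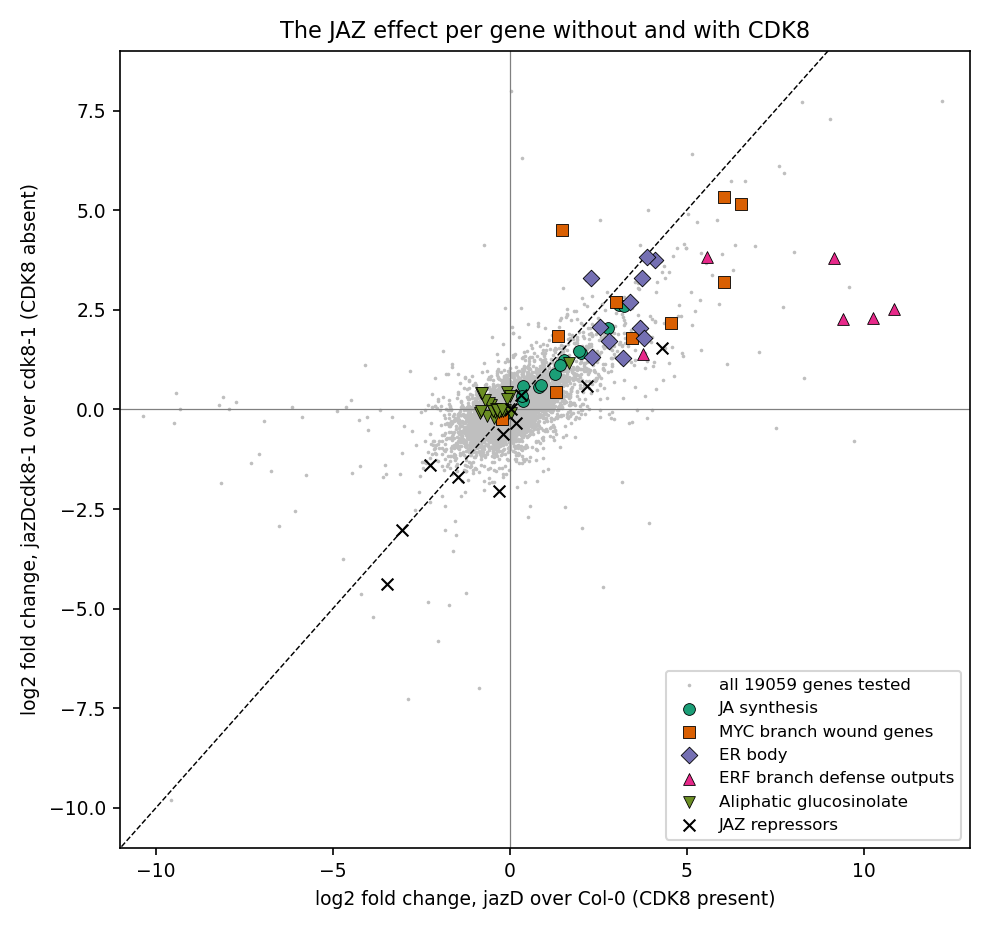
Log2 fold change of every tested gene in jazDcdk8-1 over cdk8-1 (vertical axis) against jazD over Col-0 (horizontal axis), with 6 gene lists in colour and a dashed line at equal effects. JA synthesis, ER body and most wound genes lie near or below the line on the right, while the 6 ERF branch defence outputs lie far below it, at medians of 2.41 without and 9.28 with CDK8; the first median is 5.90 without cdk8-1 replicate 3.

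MYC2, the main transcription factor freed by JAZ removal, was at 99.1, 104 and 114 CPM in jazDcdk8-1 against 35.4, 31.4 and 28.3 CPM in cdk8-1. The groups are far apart, at a log2 fold change of 1.74 ± 0.07 (adjusted p = 3.68e-14). With CDK8 present it was at 130, 131 and 130 CPM in jazD against 36.2, 41.7 and 41.4 CPM in Col-0, a log2 fold change of 1.71. The difference between these effects was 0.02 (95% interval -0.18 to 0.23). JAM1 and JAM2, MYC2-related factors that restrain the response, were higher by 0.97 ± 0.07 and 0.72 ± 0.09. MYC3, a partner of MYC2, was higher by 0.32 ± 0.05. Of the 10 JA transcription factors and receptor genes tested, 6 were called higher and 0 lower (median 0.28, against 0.01 over all genes), with the same counts without cdk8-1 replicate 3.

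Nearly all genes that make JA were higher in jazDcdk8-1. LOX2, the chloroplast lipoxygenase of the first step, was at 2883, 2863 and 2936 CPM in jazDcdk8-1 against 457, 450 and 500 CPM in cdk8-1. It was thus 6.17-fold higher, a log2 fold change of 2.62 ± 0.05 (adjusted p = 6.23e-20). AOS, the allene oxide synthase of the next step, was at 718, 744 and 737 CPM in jazDcdk8-1 against 254, 268 and 279 CPM in cdk8-1. The allene oxide cyclases AOC1 and AOC2 were higher by 2.60 ± 0.05 and 2.05 ± 0.05; reads of such close copies can be split between them. Of 14 synthesis genes tested, 13 were called higher and 0 lower (median 1.00), and without cdk8-1 replicate 3 the counts were also 13 and 0. The remaining gene, JAR1, named after its values were seen, had a log2 fold change of -0.14 and is the enzyme that couples JA to isoleucine. With CDK8, 13 of the 14 were called higher and 1 lower (median 1.35). The difference was called more negative without CDK8 for 8 of the 14 and more positive for 0. For LOX2 it was -0.47 (-0.60 to -0.34, adjusted p = 2.76e-05).

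Among genes that break down or store JA, ILL6, an amidohydrolase that splits JA from its amino acid, was at 35.3, 35.1 and 33 CPM in jazDcdk8-1 against 5.09, 4.45 and 5.38 CPM in cdk8-1. A log2 fold change of 2.79 ± 0.09 was 0.74 (0.48 to 1.00) above that in plants with CDK8, where it was 2.05. It was the only member of its list with a called positive difference. JRG21, an oxidase of JA also known as JOX3, was at 3.23, 3.54 and 4.77 CPM in jazDcdk8-1 against 0.798, 1.4 and 2.88 CPM in cdk8-1, and in plants with CDK8 at 45.7, 48.2 and 48.6 CPM in jazD against 4.88, 4.01 and 4.45 CPM in Col-0. Its log2 fold change of 1.18 became 1.82 without cdk8-1 replicate 3, and its difference of -2.24 became -1.59. ST2A, which sulfates a hydroxylated JA, was higher by 1.48 ± 0.22, and CYP94C1, which oxidises JA-isoleucine, by 1.02 ± 0.24. Of 6 genes tested, 5 were called higher and 0 lower (median 1.097), also without cdk8-1 replicate 3.

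VSP2 and VSP1, the vegetative storage proteins that stand for the MYC branch, were among the most raised genes. VSP2 was at 267, 262 and 312 CPM in jazDcdk8-1 against 5.09, 5.22 and 10.4 CPM in cdk8-1, 40.2-fold higher (log2 fold change 5.33 ± 0.13, adjusted p = 1.06e-17). Where CDK8 was intact it was at 1191, 1137 and 1179 CPM in jazD against 16.8, 17.3 and 18.9 CPM in Col-0. The fold was therefore large in both backgrounds, while the level in jazDcdk8-1 was below that in jazD. The difference between the effects was -0.72 (-1.12 to -0.31, adjusted p = 0.0142), and -0.28 with an adjusted p of 0.212 without cdk8-1 replicate 3. DESeq2 did not call it either (adjusted p = 0.148). VSP1 was at 270, 256 and 364 CPM in jazDcdk8-1 against 4.14, 7.34 and 13.3 CPM in cdk8-1, and its difference of -1.38 became -0.84 without cdk8-1 replicate 3 (adjusted p = 0.0274). Counts of VSP1 and VSP2, which are close copies, are uncertain against each other. CLH1, a chlorophyllase induced by wounding, was at 276, 272 and 277 CPM in jazDcdk8-1 against 41.5, 42.5 and 43.5 CPM in cdk8-1. NATA1, which acetylates ornithine, was at 11, 9.14 and 12.1 CPM in jazDcdk8-1 against 0.2, 0.724 and 2.5 CPM in cdk8-1, and in plants with CDK8 at 252, 254 and 248 CPM in jazD against 4.77, 3.76 and 2.85 CPM in Col-0. The log2 fold change of NATA1, 3.20, became 4.53 without cdk8-1 replicate 3, where the difference of -1.52 was no longer called (adjusted p = 0.0583). Of 10 wound genes tested, 9 were called higher and 0 lower (median 2.43), and 8 and 0 without cdk8-1 replicate 3.

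**Figure D3:**
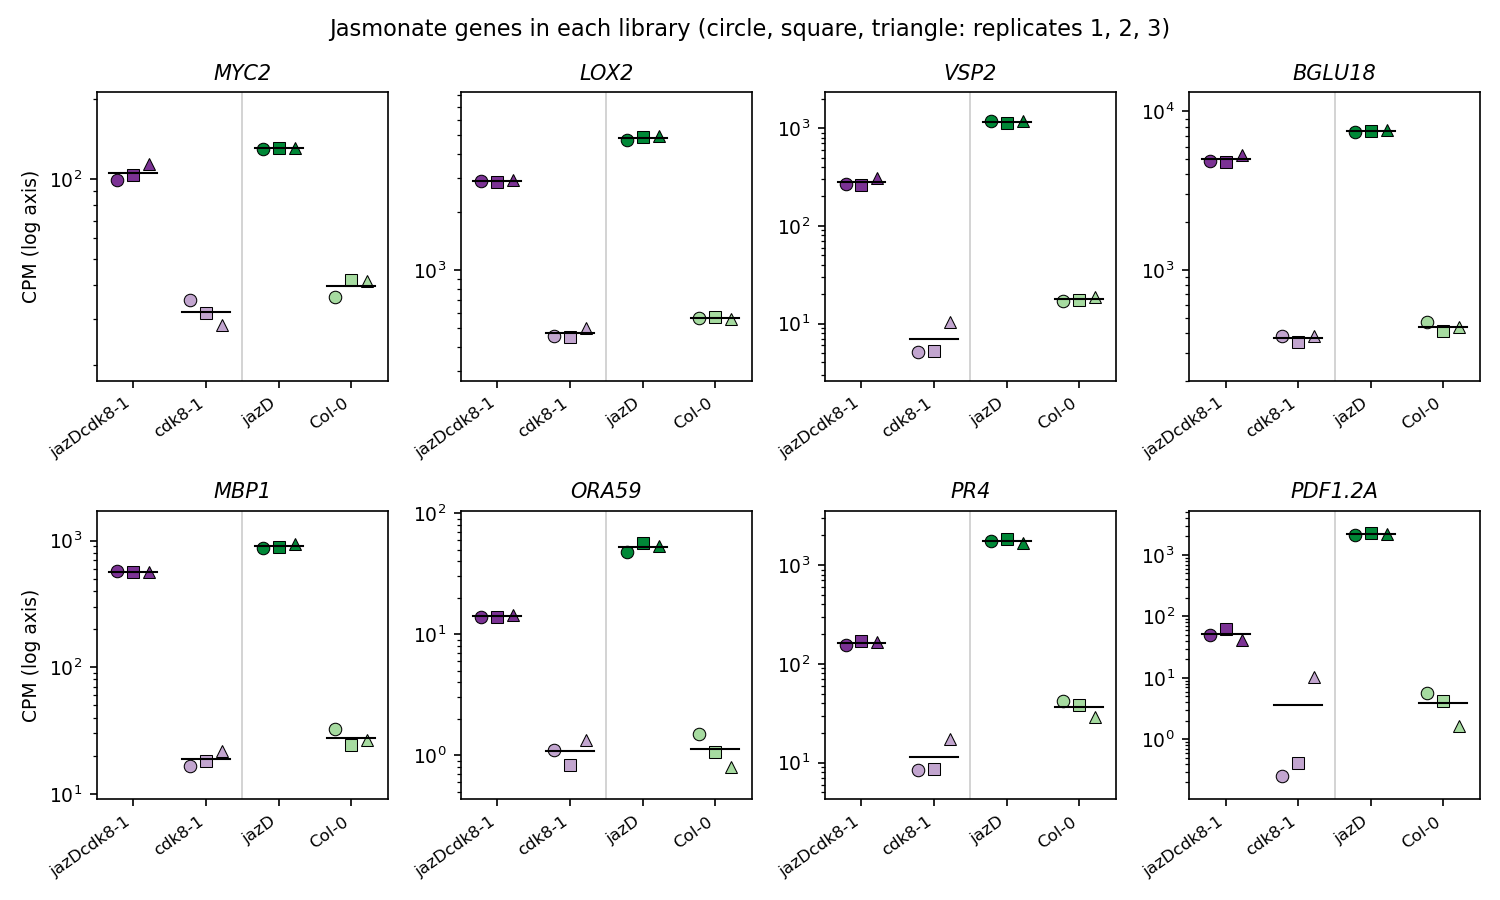
CPM of 8 JA genes in each library, on a log axis, with the genotypes jazDcdk8-1, cdk8-1, jazD and Col-0 from left to right and a horizontal bar at each mean. MYC2 in jazDcdk8-1 (99.1 to 114 CPM) comes near its level in jazD (130 to 131 CPM), while PDF1.2A in jazDcdk8-1 (41.6 to 62.3 CPM) stays far below it (2092 to 2238 CPM). Replicate 3 is the highest cdk8-1 point for every gene shown except MYC2, by the most for VSP2, PR4 and PDF1.2A.

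ER bodies are stores of beta-glucosidases in the endoplasmic reticulum that act when leaf cells are broken. BGLU18, the beta-glucosidase of leaf ER bodies, was at 4855, 4789 and 5303 CPM in jazDcdk8-1 against 380, 348 and 382 CPM in cdk8-1. It was 13.5-fold higher, a log2 fold change of 3.75 ± 0.06 (adjusted p = 1.52e-20). In plants with CDK8 the log2 fold change was 4.102, and the difference was -0.35 (-0.51 to -0.19). TSA1, a protein of ER body formation, was at 593, 590 and 654 CPM in jazDcdk8-1 against 62.8, 59.4 and 63.2 CPM in cdk8-1. JAL23, a lectin of the complex formed with the glucosidases, was at 212, 211 and 241 CPM in jazDcdk8-1 against 13.9, 13 and 19.6 CPM in cdk8-1, with a difference between backgrounds of -0.06 (-0.32 to 0.21). MEB1, an ER body membrane protein, was higher by 2.70 ± 0.09. All 11 ER body genes tested were called higher (median 2.07), also without cdk8-1 replicate 3, and in plants with CDK8 all 11 were too (median 3.41). The difference was more negative without CDK8 for 8 of the 11.

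MBP1, a myrosinase-binding lectin, rose strongly in both backgrounds, with no called difference between them. It was at 575, 567 and 564 CPM in jazDcdk8-1 against 16.6, 18.3 and 21.9 CPM in cdk8-1, 30.0-fold higher (log2 fold change 4.91 ± 0.09, adjusted p = 2.98e-20). The values with CDK8 were 879, 890 and 942 CPM in jazD against 32.3, 24.1 and 26.8 CPM in Col-0. The difference was -0.12 (-0.36 to 0.12) with all libraries and 0.00 without cdk8-1 replicate 3. Its relative MBP2 was at 27.9, 25.7 and 27.8 CPM in jazDcdk8-1 against 3.19, 2.22 and 3.36 CPM in cdk8-1.

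ERF branch regulators also rose. ORA59, the factor that joins JA and ethylene signals, was at 13.9, 13.8 and 14.5 CPM in jazDcdk8-1 against 1.1, 0.827 and 1.34 CPM in cdk8-1. The plants with CDK8 gave 47.9, 56.8 and 53.5 CPM in jazD against 1.5, 1.05 and 0.8 CPM in Col-0. The log2 fold change of ORA59 was 3.68 ± 0.15 without CDK8 and 5.56 with it, and the difference of -1.88 (-2.45 to -1.31, adjusted p = 5.77e-05) was also called without cdk8-1 replicate 3 (-1.70). ERF2 was at 16.4, 15 and 15.2 CPM in jazDcdk8-1 against 4.09, 2.27 and 2.98 CPM in cdk8-1, with a difference of -0.89 (-1.34 to -0.44). ERF5 and ERF6, related factors of ethylene and stress responses, were higher by 1.49 ± 0.36 and 1.52 ± 0.25, with differences whose intervals span 0. Of 7 regulators tested, 5 were called higher and 0 lower (median 1.51), against 7 higher in plants with CDK8 (median 1.47), and 3 differences were more negative without CDK8. Leaving out cdk8-1 replicate 3, 8 were tested, 5 called higher and 0 lower (median 1.87), with 3 more negative differences.

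PDF1.2A, a defensin that reports the ERF branch, was at 50.6, 62.3 and 41.6 CPM in jazDcdk8-1 against 0.249, 0.413 and 10.2 CPM in cdk8-1. The plants with CDK8 gave 2092, 2238 and 2208 CPM in jazD against 5.66, 4.21 and 1.65 CPM in Col-0. All 3 jazDcdk8-1 libraries lie above all cdk8-1 libraries, but cdk8-1 replicate 3 sets the size of the change. The log2 fold change was 3.79 ± 0.41 with it (adjusted p = 5.35e-07) and 7.26 ± 0.36 without it (adjusted p = 5.17e-12). The difference between the effects was -5.37 (-6.98 to -3.75, adjusted p = 4.88e-05) with that library and -1.90 without it, no longer called (adjusted p = 0.254). PDF1.3 behaved alike, at 34.3, 13.4 and 17.7 CPM in jazDcdk8-1 against 0.0499, 0.155 and 10.7 CPM in cdk8-1, with a log2 fold change of 2.52 that became 7.63. PDF1.2C was at 9.85, 8.04 and 4.82 CPM in jazDcdk8-1 against 0, 0.31 and 4.08 CPM in cdk8-1, with a log2 fold change of 2.30 that became 5.55. Reads of these near-identical defensins can be split between copies.

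PR4, a chitin-binding protein of the same branch, was at 157, 172 and 166 CPM in jazDcdk8-1 against 8.33, 8.58 and 17.44 CPM in cdk8-1. With CDK8 present it was at 1755, 1823 and 1660 CPM in jazD against 42.5, 38.7 and 28.8 CPM in Col-0. The difference of -1.74 (-2.19 to -1.28, adjusted p = 9.5e-06) was -1.29 without cdk8-1 replicate 3 and was called both ways. All 6 defence outputs tested were called higher without CDK8, with a median of 2.41, or 5.90 without cdk8-1 replicate 3. DESeq2 called 2 of the 6 and gave no adjusted p for PDF1.2A, PDF1.2C and PDF1.3. A more negative effect without CDK8 was called for 6 of the 6 with all libraries and for 2 of the 6 without cdk8-1 replicate 3. The median difference was -6.255 with all libraries and -2.72 without that library. Without it, the differences of PDF1.2A, PDF1.3 and PDF1.2C had standard errors of 1.04, 2.71 and 1.62. The missing calls thus do not show equal effects.

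**Figure D4:**
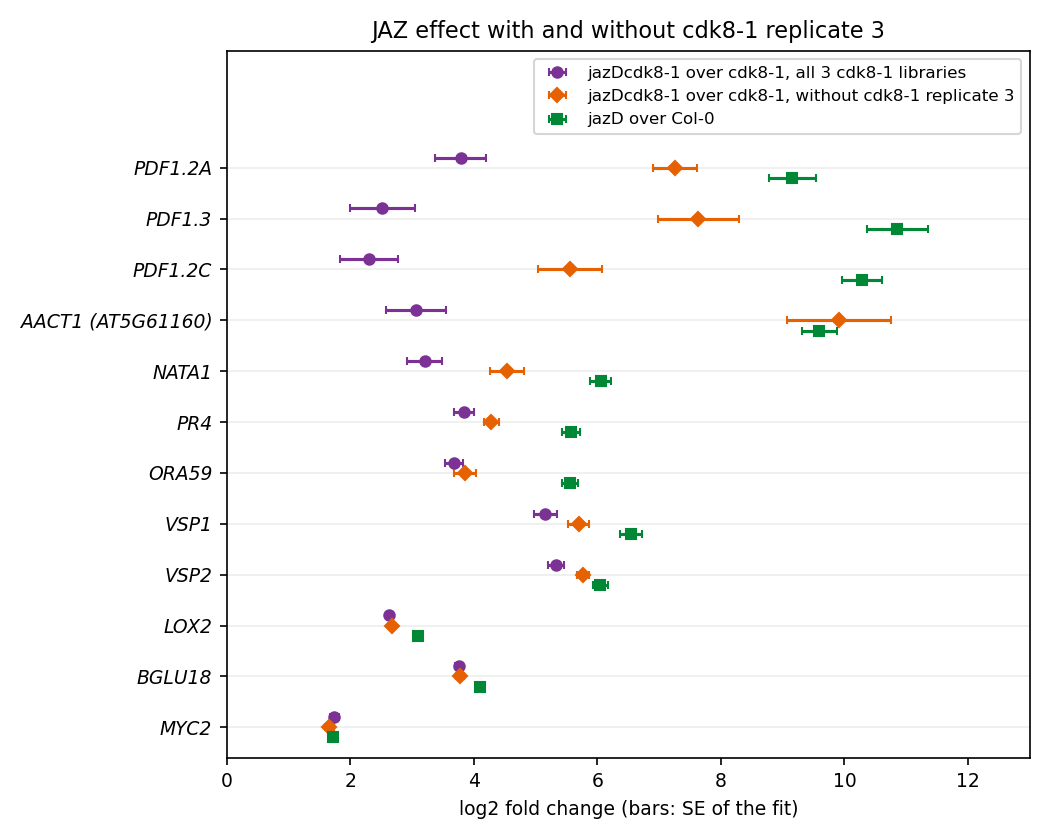
Log2 fold changes of 12 genes for jazDcdk8-1 over cdk8-1 with all libraries and without cdk8-1 replicate 3, and for jazD over Col-0; bars are approximate standard errors. PDF1.2A goes to 7.26 without that replicate against 3.79 with it, while MYC2 (1.66 and 1.74) and LOX2 (2.67 and 2.62) hardly move; the AACT1 point without it is fitted against 0 counts in cdk8-1.

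The promoters of 4 of these genes are printed to set the MYC and ERF branches side by side. Each is the 250 bases before the annotated gene start in RefSeq TAIR10.1, read 5′ to 3′ on the gene's strand. Capitals mark the G-box CACGTG, a motif bound by MYC factors, and the GCC-box GCCGCC, a motif bound by ERF factors, searched on both strands. MBP1 lies at chr1:19352792-19353041 (minus strand) with a G-box 105 bases before the start, and VSP2 at chr5:8502225-8502474 (minus strand) with neither motif. ORA59 lies at chr1:1882657-1882906 (plus strand) with a GCC-box 230 and a G-box 194 bases before the start, and PDF1.2A at chr5:17907639-17907888 (minus strand) with a GCC-box at 222.
MBP1: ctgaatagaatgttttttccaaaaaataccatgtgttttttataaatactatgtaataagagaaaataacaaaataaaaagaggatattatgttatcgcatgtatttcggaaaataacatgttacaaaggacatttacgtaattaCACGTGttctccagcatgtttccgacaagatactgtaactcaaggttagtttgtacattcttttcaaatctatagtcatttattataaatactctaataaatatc
VSP2: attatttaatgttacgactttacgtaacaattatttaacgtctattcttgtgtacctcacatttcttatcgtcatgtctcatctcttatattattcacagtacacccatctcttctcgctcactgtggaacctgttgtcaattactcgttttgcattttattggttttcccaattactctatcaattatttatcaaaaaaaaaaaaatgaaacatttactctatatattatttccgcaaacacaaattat
ORA59: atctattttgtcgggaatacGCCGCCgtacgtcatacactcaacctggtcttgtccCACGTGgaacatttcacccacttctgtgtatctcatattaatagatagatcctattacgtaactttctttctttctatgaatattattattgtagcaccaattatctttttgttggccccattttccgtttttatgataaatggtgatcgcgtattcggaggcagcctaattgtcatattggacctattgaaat
PDF1.2A: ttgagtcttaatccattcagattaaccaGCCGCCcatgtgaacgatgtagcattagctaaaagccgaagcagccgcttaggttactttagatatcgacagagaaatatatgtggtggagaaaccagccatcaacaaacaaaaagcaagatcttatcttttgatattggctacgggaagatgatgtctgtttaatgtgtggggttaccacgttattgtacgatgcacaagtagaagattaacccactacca

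A G-box was found in 7.33% of 18987 tested genes with such a window, and a GCC-box in 1.96%. Among genes at least 2-fold higher in jazDcdk8-1, 48 of 380 (12.6%) held a G-box and 12 (3.16%) a GCC-box. Among genes at least 2-fold lower, 20 of 164 (12.2%) held a G-box and 1 (0.61%) a GCC-box. The GCC-box was found in 2 of 6 defence outputs and 2 of 7 ERF regulators, and in 0 of 10 wound genes and 0 of 11 ER body genes. The G-box was found in 1 of 10 wound genes, 1 of 11 ER body genes and 3 of 7 ERF regulators. These are matches of letters in a short window, not binding sites.

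Tryptophan is the start of the indole defence compounds, and most of the genes that make it that rose did so by less without CDK8. TSB1, the beta subunit of tryptophan synthase, was at 227, 222 and 226 CPM in jazDcdk8-1 against 163, 164 and 163 CPM in cdk8-1. Where CDK8 was intact it was at 509, 570 and 520 CPM in jazD against 157, 168 and 155 CPM in Col-0. The difference was -1.27 (-1.41 to -1.14, adjusted p = 1.33e-11) and was the same to 0.01 without cdk8-1 replicate 3 (-1.28). ASA1, the anthranilate synthase of the first step, was at 38.8, 40.1 and 37.8 CPM in jazDcdk8-1 against 26, 26.8 and 29.1 CPM in cdk8-1, with a difference of -0.64 (-0.87 to -0.42). PAI2 and PAT1, enzymes of the middle steps, were higher by 1.63 ± 0.08 and 0.84 ± 0.05. Of 11 genes tested, 6 were called higher and 0 lower (median 0.33), against 7 and 1 in plants with CDK8 (median 1.095), and 7 differences were more negative without CDK8. In the shikimate pathway, which feeds aromatic amino acids, 3 of 12 were called higher and 1 lower (median 0.02). Over all genes tested the shares were 12.7% and 11.2%. DHS1, its entry enzyme, was higher by 0.33 ± 0.04, with a difference of -0.68 (-0.80 to -0.55). In plastid serine synthesis 2 of 6 were called higher and 1 lower. PGDH2 was higher by 0.82 ± 0.10 and PSAT1 by 0.63 ± 0.05, while PGDH3 fell by 0.24 on the log2 scale.

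Indole glucosinolates are sulfur-rich defence compounds made from tryptophan. CYP79B2, which commits tryptophan to this route, was at 71.5, 79 and 81.9 CPM in jazDcdk8-1 against 46.9, 50.1 and 53.3 CPM in cdk8-1 (log2 fold change 0.63 ± 0.06, adjusted p = 2e-07). The enzymes that decorate the indole ring moved most. CYP81F4, a hydroxylase, was at 10.9, 10.9 and 12.9 CPM in jazDcdk8-1 against 3.54, 2.22 and 3.6 CPM in cdk8-1, and at 109, 116 and 111 CPM in jazD against 7.73, 8.53 and 10.2 CPM in Col-0. IGMT5, a methyltransferase acting after it, was at 17.8, 18 and 19.2 CPM in jazDcdk8-1 against 3.34, 3.36 and 5.57 CPM in cdk8-1, and at 107, 116 and 112 CPM in jazD against 5.81, 4.17 and 6.35 CPM in Col-0. Both effects were smaller without CDK8, by differences of -1.78 (-2.16 to -1.40) and -2.20 (-2.61 to -1.79). CYP81F2 and IGMT1, a hydroxylase and a methyltransferase that act at another position of the indole ring, were higher by 1.81 ± 0.33 and 1.80 ± 0.19. Of 18 genes tested, 11 were called higher and 2 lower (median 0.55), against 15 and 3 in plants with CDK8 (median 1.04).

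Aliphatic glucosinolates, made from methionine, showed the reverse arrangement. With CDK8, 19 of 24 genes were called lower in jazD and 1 higher (median -0.41). Without CDK8, 2 of 24 were called lower and 6 higher in jazDcdk8-1 (median -0.02), or 1 and 6 without cdk8-1 replicate 3. The difference was more positive for 17 of the 24 and more negative for 0, with or without that library. AOP2, a side-chain oxygenase, was at 20.5, 20.2 and 20.6 CPM in jazDcdk8-1 against 14.8, 15.8 and 15.6 CPM in cdk8-1, but at 15, 13.4 and 16.6 CPM in jazD against 24.3, 26.9 and 25.3 CPM in Col-0. Its difference was 1.18 (0.96 to 1.399, adjusted p = 7.78e-08). MAM1, which lengthens the chain, and GSTU20, a glutathione transferase of the pathway, were higher by 0.34 ± 0.05 and 0.25 ± 0.05. FMOGS-OX2, a side-chain monooxygenase, was higher in both backgrounds (1.17 without and 1.67 with CDK8).

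Glucosinolates are broken down by myrosinases and steered by specifier proteins. TGG2, a myrosinase, was at 4705, 4656 and 4549 CPM in jazDcdk8-1 against 1016, 1093 and 966 CPM in cdk8-1, a log2 fold change of 2.18 ± 0.06 (adjusted p = 3.22e-17). The values with CDK8 were 5458, 4763 and 5046 CPM in jazD against 2994, 2749 and 3024 CPM in Col-0. Its level was close in both jazD genotypes and lowest in cdk8-1, and the difference was 1.38 (1.21 to 1.54, adjusted p = 6.99e-11). NSP1, which steers breakdown to nitriles, went the other way. It was at 398, 388 and 403 CPM in jazDcdk8-1 against 162, 148 and 140 CPM in cdk8-1, and at 513, 551 and 523 CPM in jazD against 67.7, 71.3 and 68.6 CPM in Col-0, a difference of -1.53 (-1.68 to -1.38). Of 10 genes tested, 9 were called higher and 0 lower (median 0.99), and 8 without cdk8-1 replicate 3. In plants with CDK8, 8 were called higher and 1 lower.

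Of 19 flavonoid and anthocyanin genes tested, 10 were called higher and 3 lower (median 0.33), or 9 and 4 without cdk8-1 replicate 3. PAP1, the MYB factor that turns on anthocyanins, was at 10.6, 11.5 and 11.1 CPM in jazDcdk8-1 against 2.69, 3.1 and 3.27 CPM in cdk8-1 (log2 fold change 1.87 ± 0.13). Its effect was larger without CDK8, by 0.66 (0.24 to 1.09, adjusted p = 0.0296). DFR, the reductase at the start of the anthocyanin steps, was at 40.8, 43.5 and 39.9 CPM in jazDcdk8-1 against 18.7, 13.3 and 14.1 CPM in cdk8-1. It was at 55, 53.3 and 57.5 CPM in jazD against 9.5, 8.03 and 10.2 CPM in Col-0, a difference of -1.15 (-1.43 to -0.86). UGT79B1, which adds a sugar to anthocyanins, and TT8, a partner of PAP1, were higher by 1.48 ± 0.14 and 1.37 ± 0.26. The early enzymes F3H and FLS1 and the factor MYB111, which acts on them, were the 3 called lower. They are named after their values were seen, and fell by 0.45, 0.54 and 0.50 on the log2 scale. In plants with CDK8, 14 were called higher and 1 lower (median 0.98). Of 9 genes at the entry to phenylpropanoids, 4 were called lower and 0 higher (median -0.12), by 0.12 to 0.30 on the log2 scale. They were PAL1, PAL2, 4CL1 and 4CL3, and the calls of the last 3 of these were lost when certain single libraries were left out.

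Terpene and amine defence genes were few. TPS03, which makes farnesene and ocimene, was at 4.95, 6.7 and 6.11 CPM in jazDcdk8-1 against 0.599, 0.62 and 1.06 CPM in cdk8-1, with a difference of 0.20 (-0.44 to 0.84). TPS10, another terpene synthase, was at 1.89, 1.63 and 1.85 CPM in jazDcdk8-1 against 0.0499, 0.362 and 0.0961 CPM in cdk8-1. The log2 fold change of TPS10, 3.38, became 4.49 without cdk8-1 replicate 2. Of 5 genes tested, 3 were called higher and 0 lower (median 0.66). AACT1 (AT5G61160), the transferase that makes coumaroylagmatine, was at 8.73, 4.64 and 5.46 CPM in jazDcdk8-1 against 0, 0 and 2.11 CPM in cdk8-1, and at 406, 451 and 410 CPM in jazD against 0.208, 0.953 and 0.45 CPM in Col-0. Its log2 fold change was 3.07 ± 0.49 (adjusted p = 6.87e-05), and it was not called by DESeq2 (adjusted p = 0.115). All 44 cdk8-1 counts of AACT1 were in replicate 3, and without that library it was at least 80.8-fold higher at a limit of 3 counts over the group. The other 2 genes of that list were not called. Of 9 protease inhibitor genes, 6 were called higher and 0 lower (median 0.77), and 5 without cdk8-1 replicate 3. AT2G43530, a defensin-like protein, was at 73.3, 74.2 and 68 CPM in jazDcdk8-1 against 15.9, 18.5 and 18.7 CPM in cdk8-1. TI1, a trypsin inhibitor of the same cluster, was at 11.2, 9.9 and 12.1 CPM in jazDcdk8-1 against 5.54, 6.1 and 7.01 CPM in cdk8-1, with a difference of -1.69 (-2.19 to -1.19).

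Of 17 salicylic acid genes tested, 14 were not called, near the share over all genes tested (14489 of 19059). PR1, the usual salicylic acid marker, was at 2.06, 1.44 and 9.17 CPM in jazDcdk8-1 and 3.04, 7.03 and 4.66 CPM in cdk8-1, with overlap and a log2 fold change of -0.17 ± 0.61 (adjusted p = 0.882). The plants with CDK8 gave 47.5, 106 and 45.5 CPM in jazD against 32.5, 16.6 and 12.4 CPM in Col-0, and the difference of -1.87 (-3.34 to -0.41) was not called (adjusted p = 0.0761). EDS5, the transporter of its precursor, was at 5.12, 4.54 and 5.42 CPM in jazDcdk8-1 against 2, 2.48 and 3.41 CPM in cdk8-1. Of the 17 genes, 3 were called higher and 0 lower (median 0.03), against 12.7% and 11.2% of all genes tested. By DESeq2 or with total-count scaling, 1 was called higher. In the camalexin list, 3 of 5 were called higher and 0 lower (median 1.34). GSTF6, a glutathione transferase of that pathway, was at 95.3, 87.6 and 107 CPM in jazDcdk8-1 against 24.9, 23.7 and 27.5 CPM in cdk8-1, and WRKY33, its regulator, was higher by 0.80 ± 0.14. Of 8 touch and early stress genes tested, 1 was called higher, against 12.7% of all genes tested. It was TCH3, a calmodulin-like protein, higher by 0.66 ± 0.14. The list summed to 85.7 to 96.6 CPM in jazDcdk8-1 and 67.2 to 82.7 CPM in cdk8-1, and to 208 to 302 CPM in jazD and 111 to 147 CPM in Col-0, and its part in the results was not tested.

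More sulfate genes fell than rose. APR1 and APR2, the reductases of activated sulfate, were at 30, 33.2 and 30.1 CPM and at 84.4, 85.5 and 82 CPM in jazDcdk8-1, against 59.7, 59 and 53.6 CPM and 145, 144 and 134 CPM in cdk8-1. LSU2, a sulfur starvation marker, was at 2.61, 2.58 and 2.55 CPM in jazDcdk8-1 against 6.24, 7.34 and 4.85 CPM in cdk8-1. With CDK8, LSU2 had a log2 fold change of -0.07, and the difference was -1.17 (-1.67 to -0.68). APR3, named after its values were seen, was lower without CDK8 (-0.41) and higher with it (1.56). Of 15 genes tested, 7 were called lower and 3 higher (median -0.28), or 8 and 3 without cdk8-1 replicate 3, and 7 and 1 with total-count scaling. Over all genes tested, 11.2% were called lower and 12.7% higher. In plants with CDK8, 3 were called lower and 6 higher. The difference was more negative without CDK8 for 10 of the 15.

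Photosynthesis and photorespiration genes that passed the test fell for the most part, by small amounts. RBCS1B, a small subunit of Rubisco, was at 5733, 5548 and 4977 CPM in jazDcdk8-1 against 7078, 7824 and 6874 CPM in cdk8-1 (log2 fold change -0.42 ± 0.06, adjusted p = 2.78e-05). CA1, a carbonic anhydrase, was at 2621, 2524 and 2462 CPM in jazDcdk8-1 against 3152, 3353 and 3056 CPM in cdk8-1, with a difference of 0.46 (0.31 to 0.61). Of 40 photosynthesis genes, 11 were called lower and 4 higher (median -0.03), 9 and 4 without cdk8-1 replicate 3, and 15 and 4 with total-count scaling. The shares over all genes tested were 11.2% lower and 12.7% higher. In plants with CDK8, 23 were called lower and 0 higher (median -0.15). GLDP2 and GLDP1, subunits of the glycine decarboxylase of photorespiration, fell by 0.53 and 0.41 on the log2 scale, and CAT2, the leaf catalase, by 0.44. Of 13 photorespiration genes, 9 were called lower and 0 higher (median -0.18), against 12 and 0 in plants with CDK8 (median -0.36), with 7 differences more positive without CDK8. ASN1, an asparagine synthetase induced by low sugar, was at 34.8, 28.8 and 36.2 CPM in jazDcdk8-1 against 10.2, 9.41 and 12.3 CPM in cdk8-1, and its log2 fold change of 1.64 ± 0.12 was 0.71 (0.39 to 1.02) above that in plants with CDK8. Of 18 sugar starvation genes, 10 were called higher and 0 lower (median 0.27), 11 and 0 without cdk8-1 replicate 3, and 7 and 1 with total-count scaling.

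Most genes tested in the cell wall and clock lists passed the test, against 12.7% called higher and 11.2% lower over all genes tested. EXPA11 and EXPA8, expansins that loosen the cell wall, were at 22.4, 21.2 and 20 CPM and at 63.2, 64.4 and 57 CPM in jazDcdk8-1, against 35.9, 39.6 and 38 CPM and 89.6, 99.8 and 95.2 CPM in cdk8-1. Both fell by more in plants with CDK8, with differences of 0.68 (0.47 to 0.89) and 0.52 (0.34 to 0.70). Of 11 cell wall genes, 7 were called lower and 1 higher (median -0.22), or 6 and 1 without cdk8-1 replicate 3. In the clock, the morning genes CCA1 and LHY were at 18.4, 18 and 17 CPM and at 8.01, 8.95 and 11 CPM in jazDcdk8-1, against 41.9, 40.3 and 40.1 CPM and 29.6, 24 and 27 CPM in cdk8-1. The evening genes PRR5 and ELF4 were at 57.6, 63.4 and 62.7 CPM and at 2.73, 3.3 and 4.35 CPM in jazDcdk8-1, against 23.5, 25.8 and 32.1 CPM and 0.998, 1.65 and 1.34 CPM in cdk8-1. Of 14 clock genes, 6 were called higher and 7 lower (median -0.21), also without cdk8-1 replicate 3, and 6 and 8 in plants with CDK8. The labels used here give no hour of harvest.

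**Figure D5:**
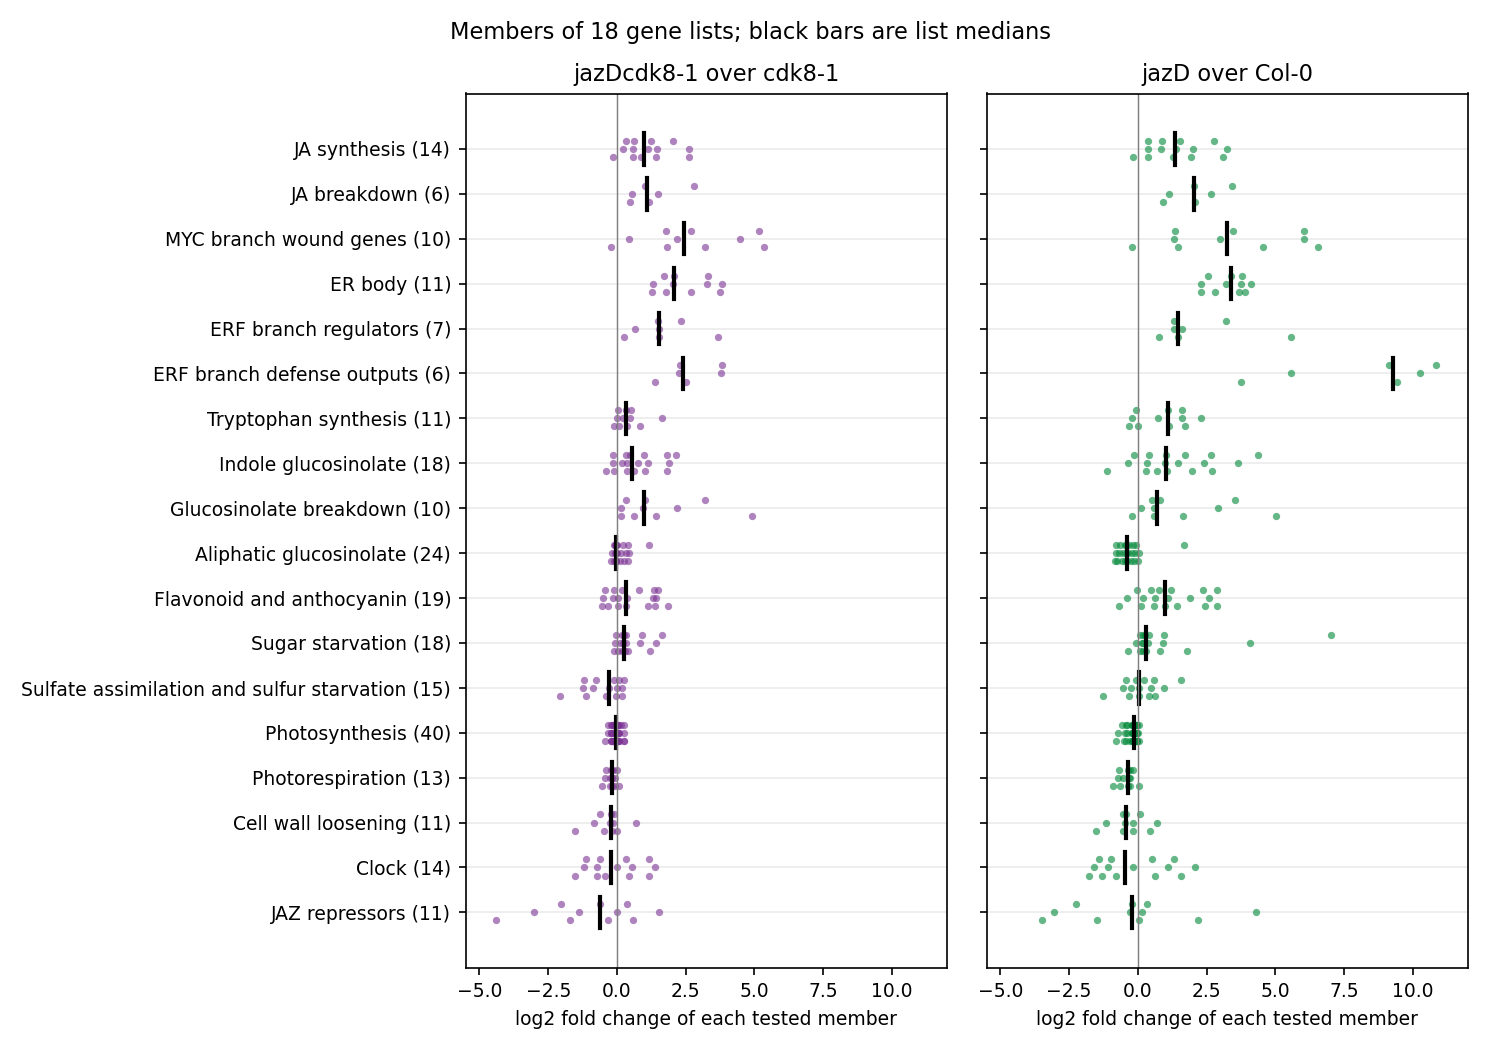
Log2 fold changes of the tested members of 18 gene lists for jazDcdk8-1 over cdk8-1 (left) and jazD over Col-0 (right); each point is a gene and each black bar the list median. The medians for ER body are 2.07 and 3.41, for ERF branch defence outputs 2.41 (5.90 without cdk8-1 replicate 3) and 9.28, and for aliphatic glucosinolates -0.02 and -0.41.

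Beyond the lists, the genes that rose most in jazDcdk8-1 included several that were almost silent in cdk8-1. AT5G28810, annotated in the Ulp1 protease family, had 727 counts in jazDcdk8-1 against 3 in cdk8-1, a ratio of 241 (95% interval of counting error, 82.2 to 1170). All 3 cdk8-1 counts were in replicate 3, and without that library AT5G28810 was at least 158-fold higher at a limit of 3 counts over the group. It had 1682 counts in jazD and 0 in Col-0, at least 597-fold higher at a limit of 3 counts over the group. CSLA01, a cellulose-synthase-like glycosyltransferase, was at 15.1, 12.2 and 15.6 CPM in jazDcdk8-1 against 0.15, 0 and 0.432 CPM in cdk8-1. The log2 fold change of CSLA01, 6.12, became 7.43 without cdk8-1 replicate 3. AT3G28220, of the TRAF-like family, was at 1243, 1226 and 1384 CPM in jazDcdk8-1 against 34.8, 41.2 and 65.8 CPM in cdk8-1, 27.1-fold higher. AT1G52000, a mannose-binding lectin, was at 537, 522 and 520 CPM in jazDcdk8-1 against 24.1, 29.9 and 36.5 CPM in cdk8-1, and here the effect was larger without CDK8, by 0.44 (0.15 to 0.73, adjusted p = 0.0363). AT1G15125, a methyltransferase, and AT14A, an integrin-like protein, were 17.9-fold and 16.6-fold higher, and AT1G14120, an oxygenase, 26.1-fold.

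Among the genes that fell most, AT4G12917, a non-coding RNA, had 0 counts in jazDcdk8-1 against 343 in cdk8-1, at least 115-fold lower, and 0 in jazD against 286 in Col-0, at least 89.5-fold lower. TRM24 was at 0.667, 0.526 and 0.232 CPM in jazDcdk8-1 against 13.4, 9.92 and 11.6 CPM in cdk8-1, with a difference of -0.43 (-1.51 to 0.65). AT5G52420, uncharacterised, was at 7.68, 8.23 and 8.85 CPM in jazDcdk8-1 against 40.3, 43.1 and 40.4 CPM in cdk8-1. TRM24 and AT5G52420 lie in the stretch of chromosome 5 described above. PORA, a light-dependent enzyme of chlorophyll synthesis in the same stretch, was at 12.8, 12.7 and 13.1 CPM in jazDcdk8-1 against 34.3, 40.7 and 47.8 CPM in cdk8-1. GOLS3, a cold-induced galactinol synthase, was at 2.45, 2.01 and 2.36 CPM in jazDcdk8-1 against 9.78, 10.7 and 10.4 CPM in cdk8-1. XTH31, a cell wall enzyme, fell by 1.54 on the log2 scale and had a difference of -0.05 (-0.29 to 0.18).

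Among the genes whose JAZ effect differed most between the backgrounds were defence genes far higher in jazD than in jazDcdk8-1. AT4G16260, a putative beta-1,3-endoglucanase, was at 11, 6.46 and 7.64 CPM in jazDcdk8-1 against 0.699, 0.569 and 2.83 CPM in cdk8-1, but at 575, 633 and 560 CPM in jazD against 3.17, 3.61 and 1.65 CPM in Col-0. Its log2 fold change of 2.56 became 3.69 without cdk8-1 replicate 3, and the difference of -5.15 became -4.03, called both ways. AT2G43590, of the chitinase family, was at 13.8, 7.13 and 10.4 CPM in jazDcdk8-1 against 2.69, 3.72 and 7.59 CPM in cdk8-1, but at 662, 752 and 626 CPM in jazD against 7.99, 11.2 and 9.9 CPM in Col-0. The difference of AT2G43590, -5.0, became -4.44 without cdk8-1 replicate 3 and was called both ways. Others were low in jazD alone. AT5G45490 was at 55.5, 55.1 and 58.4 CPM in jazDcdk8-1 and 40.5, 45.6 and 41.7 CPM in cdk8-1, but at 0, 0 and 0.296 CPM in jazD against 68.5, 67.7 and 62.1 CPM in Col-0. AT5G49440 was at 92.3 to 106 CPM in jazDcdk8-1 and 115 to 129 CPM in cdk8-1, but at 0, 0 and 0.355 CPM in jazD against 80.2, 83.2 and 82.7 CPM in Col-0. Both genes lie in the chromosome 5 stretch, and in both jazDcdk8-1 resembled cdk8-1 rather than jazD. FUM2, the cytosolic fumarase, lies there too and was at 252, 259 and 261 CPM in jazDcdk8-1 against 133, 131 and 132 CPM in cdk8-1, and at 33.9, 32.4 and 35.4 CPM in jazD against 249, 234 and 233 CPM in Col-0. AT5G44530, in the same stretch, was low in both jazD genotypes, at 26.3, 31.7 and 29.3 CPM in jazDcdk8-1 against 60.4, 59.1 and 68.4 CPM in cdk8-1, and at 11.4, 10.4 and 9.54 CPM in jazD against 89.1, 82.7 and 86.3 CPM in Col-0.

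FUM2 was thus called higher in jazDcdk8-1 and lower in jazD, a difference of 3.78 (3.64 to 3.91, adjusted p = 5.58e-20). Outside that stretch, AT3G57880, a calcium-dependent lipid-binding protein, was at 20.8, 22.8 and 23 CPM in jazDcdk8-1 against 4.24, 3.05 and 4.13 CPM in cdk8-1, and at 16.4, 18.18 and 17.2 CPM in jazD against 19.2, 19.8 and 17.7 CPM in Col-0. Here cdk8-1 is the low group, and jazDcdk8-1 lies a little above the genotypes with CDK8. NIT4, a nitrilase that detoxifies cyanide, was called lower in jazDcdk8-1 and higher in jazD. It was at 8.29, 9.23 and 9.26 CPM in jazDcdk8-1 against 14.3, 14.7 and 14.8 CPM in cdk8-1, and at 13.8, 20.5 and 15.3 CPM in jazD against 10, 8.03 and 8.1 CPM in Col-0. AT4G21650, a subtilase, went the other way, with log2 fold changes of 0.55 ± 0.08 without CDK8 and -0.66 with it.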

How the data were processed

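RNA from 12 rosette pools was sequenced from libraries made with a BGI transcriptome kit. The authors counted reads per gene with RSEM 1.2.25 against TAIR10, per the submitters' processing notes; the annotation release, the aligner, the strand setting and any trimming are not given in the sources used here. The deposited expected counts cover 33323 genes, and 3.423% of the values are not whole. The deposited TPM values sum to 1000000 per library, per the file headers. Totals ran from 17583467 to 21030374 counts.

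Expected counts were rounded and fitted in edgeR 4.0.16 under R 4.3.3. After TMM scaling and filterByExpr, 19059 genes entered a quasi-likelihood fit in which the 12 libraries share an estimate of spread and each genotype has its own term. Contrasts were jazDcdk8-1 minus cdk8-1, jazD minus Col-0, and the difference of these effects. P-values were adjusted by Benjamini-Hochberg over all tested genes, and a gene was called at an adjusted p below 0.05. CPM are TMM-scaled. Standard errors are the absolute log2 fold change over the square root of F, approximate and too small at few counts. A common dispersion of 0.002566 was estimated. The model was tested on simulated data.

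The comparison, the 43 lists and the rule for named genes were chosen with earlier results of these data known. Of 523 list members, 502 were used, 10 of them matched by annotated description, and 21 had no annotated name that matched and were left out. Names follow RefSeq TAIR10.1, which holds 32835 of the identifiers and not the other 488. The rule names 174 genes: the matched kinase module genes, JAZ genes and 9 reporters whatever their call; from each list the 4 largest changes among called members that reach 1 CPM; the 10 highest and 10 lowest genes that reach 5 CPM without overlap of libraries; the 6 most positive and 6 most negative differences; 8 genes with at least 4-fold change in both backgrounds and the smallest difference; and 6 called in opposite directions. Close copies (PDF1.2, VSP, AOC, RBCS and IGMT genes) share reads, so their values are uncertain. Intervals from counts cover counting error only.

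Alternatives were RLE scaling, total-count scaling, no filter, a minimum of 1 CPM in 3 libraries, DESeq2 1.42.0, limma 3.58.1 on log2(TPM + 1) and log2(TPM + 0.1), removal of the 20 most abundant genes, removal of chromosome 5 from 17 to 24 Mb, a replicate block, the 6 libraries alone, and each library left out. List counts and named genes without cdk8-1 replicate 3 were added after the data were seen.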

Additional observations from a re-analysis of the deposited data

Results flagged for a closer look

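For 43 named genes the JAZ effect differed between plants without and with CDK8 by at least 1 on the log2 scale, with the difference called by edgeR's quasi-likelihood test. Each value is the log2 effect of jazDcdk8-1 over cdk8-1 minus that of jazD over Col-0, so a negative value is a more negative effect without CDK8. The named genes were chosen in part for such differences, so their number is no measure of how common these are.

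Among JA genes the difference was -1.75 for JAZ5, -2.75 for JAZ8, -1.58 for JAZ10, -2.24 for JRG21 and -1.05 for CYP94C1. In the ERF branch it was -1.88 for ORA59, -1.74 for PR4, -5.37 for PDF1.2A, -8.34 for PDF1.3 and -7.98 for PDF1.2C. Among wound and amine genes it was -1.38 for VSP1, -2.85 for NATA1, -2.33 for TPS10, -6.52 for AACT1 and -1.69 for TI1. Of the 43 differences, 7 were no longer called without cdk8-1 replicate 3, those of JAZ8, PDF1.2A, PDF1.3, PDF1.2C, NATA1, AACT1 and TT8. The differences of JAZ8 and TT8 were then -2.63 and -1.02, close to those with all libraries. That of PDF1.2A was then -1.90, PDF1.3 -3.22, PDF1.2C -4.72 and NATA1 -1.52. For AACT1 it was 0.32 (adjusted p = 0.804), fitted against 0 counts in cdk8-1.

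Among genes of tryptophan and glucosinolates it was -1.27 for TSB1, -2.20 for IGMT5, -1.78 for CYP81F4 and -1.53 for NSP1, but 1.18 for AOP2 and 1.38 for TGG2. Among flavonoid, camalexin, sulfur and starvation genes it was -1.40 for UGT79B1, -1.15 for DFR, -1.09 for TT8, -1.02 for GSTF6, -1.17 for LSU2 and -2.89 for BCAT2, an aminotransferase of branched-chain amino acids. BCAT2 lost its call in jazDcdk8-1 against cdk8-1 when any of 4 libraries was left out.

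Of the genes in no list, the difference was negative for AT3G28220 (-1.09), AT4G16260 (-5.15), AT2G43590 (-5.00), NIT4 (-1.63), AKR4C8 (-1.12) and AT5G44568 (-1.08). It was positive for AT5G45490 (9.83), AT5G49440 (9.16), FUM2 (3.78), AT5G44530 (1.93) and AT5G44580 (1.87), all 5 in the stretch of chromosome 5 from 17 to 24 Mb. Of the 43 genes, 11 lie there, and the other 6, PDF1.2A, PDF1.2C, TSB1, UGT79B1, DFR and AT5G44568, had negative differences. The part of this stretch in these values was not tested. It was also positive for AT3G57880 (2.67), AT5G35935 (2.13), AT2G27420 (1.46), AT2G17525 (1.25) and AT4G21650 (1.21). The calls of AKR4C8, AT2G17525 and AT5G44568 in jazDcdk8-1 against cdk8-1 were lost when certain single libraries were left out.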

How the results depend on the processing

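A recomputed value was counted as reversed only where its sign changed and either fit was called. A change of sign between uncalled values, as for the MYC2 difference (0.02, and -0.05 without cdk8-1 replicate 3), was not counted. Of 2907 recomputed values for named genes in jazDcdk8-1 against cdk8-1, 2811 kept their side of the threshold without reversal, and 0 reversed. Of 3773 for the difference of the effects, 3640 did and 4 reversed. These were TPS03 (-0.64), RGL3 (-0.50) and AT5G35935 (-0.091) with limma on log2(TPM + 1), which understates low genes, and the AACT1 (AT5G61160) log2 fold change, difference of the 2 JAZ effects, at 0.322 without cdk8-1 replicate 3 (fitted against 0 counts in cdk8-1) and -7.22 to -6.16 without any other single library; the cause was not tested for these. Of 1462 list counts, 1387 stayed within 1.5 times. Limma on log2(TPM + 1) gave 195 genes at least 2-fold higher and 51 lower, and on log2(TPM + 0.1) it gave 1056 more negative differences; the cause was not tested. With a library left out, 1940 to 2102 genes were higher, 1600 to 1945 lower, 336 to 373 at least 2-fold higher and 147 to 179 at least 2-fold lower, and 1182 to 1499 differences were more positive and 1273 to 1598 more negative. DESeq2 gave 1864 higher and 1733 lower. A replicate block gave 2349 higher and 2048 lower, and 378 and 159 at 2-fold. These counts, and those of more positive and more negative differences, were all within 1.5 times the counts without the block. The numbers did not pair the libraries: same-numbered jazDcdk8-1 and cdk8-1 libraries had deviations correlated at -0.012, 0.051 and 0.028, and 3 of 6 correlated best with their own number. Depth limits genes of few counts, such as JAZ4, JAZ7 and JAZ8, where a missing call is not absence of change.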

Other observations

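Of 14 gibberellin genes, 5 were called higher and 3 lower (median 0.14), against 12.7% and 11.2% of all genes tested. RGL3, a DELLA repressor, was at 3.95, 3.3 and 3.52 CPM in jazDcdk8-1 against 0.599, 0.724 and 0.672 CPM in cdk8-1, and its log2 fold change of 2.42 ± 0.20 differed by 0.04 (95% interval -0.43 to 0.51) from that in plants with CDK8. GA3OX1, which makes active gibberellin, was at 8.62, 5.84 and 6.62 CPM in jazDcdk8-1 against 12.1, 12.4 and 13.7 CPM in cdk8-1. Of 11 iron genes, 2 were called higher, 3 lower and 6 not called. NAS1 and NAS4, nicotianamine synthases, fell by 0.89 and 0.72 on the log2 scale, and FER4, a ferritin, was higher by 0.40 ± 0.07. Of 13 cold genes, 3 were called higher and 4 lower, with KIN2 and COR15B higher by 0.65 and 0.44 and GOLS3 and RD29A lower by -2.18 and -0.57. Of 11 abscisic acid genes, 1 was called higher (ABF1, 0.37) and 2 lower (HAB1, -0.46, and ABF3, -0.52).

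The list counts in this paragraph stand beside 12.7% called higher and 11.2% called lower over all genes tested. Of 12 senescence genes, 5 were called higher and 1 lower. PPH and NYC1, enzymes of chlorophyll breakdown, were higher by 0.59 ± 0.05 and 0.28 ± 0.05, and SAG29 was at 0.334, 0.526 and 0.37 CPM in jazDcdk8-1 against 2.1, 1.4 and 0.865 CPM in cdk8-1. FLC, the repressor of flowering, was at 3.34, 5.02 and 4.68 CPM in jazDcdk8-1 against 1.75, 2.58 and 2.55 CPM in cdk8-1, and was the 1 gene called of 7 in the flowering list. Of 8 tocopherol and tyrosine genes, 2 were called higher and 3 lower, with VTE2 at 0.41 and TAT7 at -0.59. AOX1A, the alternative oxidase, was at 47.3, 49.6 and 49.4 CPM in jazDcdk8-1 against 44.5, 41.9 and 43.2 CPM in cdk8-1, a call lost when any of 3 libraries was left out. In its list 1 of 6 was called higher and 2 lower. Of 12 mitosis genes, 1 was called lower and 0 higher, and of 3 heat shock genes tested 0 were called. Counts this small are not read as a result about these lists. Of the leaf markers, 4 of 5 were called lower, and 3 without cdk8-1 replicate 3.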
